A study of Mus musculus with 6 samples.

Results

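The genes described here are 9 genes of heme synthesis, namely 8 enzymes (*Alas1*, *Alas2*, *Alad*, *Uros*, *Urod*, *Cpox*, *Ppox* and *Fech*) and the mitochondrial iron importer *Slc25a37*. A member was any feature that carried one of these names in the 6 deposited expression tables, and the FPKM (fragment counts scaled by transcript length and by the depth of the library) of features that shared a name were added. Of the 9 names, 7 were found among the 48733 named genes. *Alad* and *Ppox* were on no named feature, and the unnamed features at their positions are given as such. All 7 named members reached a mean of 1 FPKM over the 6 libraries and were among the 12112 genes tested, *Alas2* through 3 of the libraries alone.

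RNA-seq was done on cortical bone of femora and on osteoblasts, both from CC016/GeniUnc mice of the Collaborative Cross inbred panel, with 3 libraries labelled bone and 3 labelled osteoblasts. For bone, the marrow was spun out of the femur before RNA was isolated. The osteoblasts were grown from marrow stromal cells, the cells of the marrow that attach to the dish, with ascorbic acid, beta-glycerophosphate and dexamethasone added to drive them to form bone cells. No mutation separated the groups, the sex and age of the mice were not given, and the study stated 3 mice without saying whether a number shared by a bone and an osteoblast library marked the same mouse. P-values below therefore measure the spread between these libraries. The study made them to see which transcripts are expressed in bone and in bone cells.

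The libraries did not all match the markers of their labels. *Hbb-bt*, an adult beta-globin gene, had 7.05, 3.58 and 34838 FPKM in replicates 1, 2 and 3 of bone, and 3.43, 34268 and 48650 FPKM in those of osteoblasts. It was thus above 1000 FPKM in bone replicate 3 and osteoblasts replicates 2 and 3, called here the hemoglobin-rich libraries, and every library is kept under its deposited label. Its feature also covers *Hbb-bs*, the neighbouring beta-globin gene. In the hemoglobin-rich libraries the 7 measured erythroid markers summed to 35289 to 49591 FPKM, the 9 neutrophil markers to 14433 to 17465 and the 6 muscle markers to 287 to 1213. In the other libraries these sums were 3.50 to 7.10, 2.60 to 10.2 and 1.60 to 3.82 FPKM, and the neutrophil gene *Elane*, the erythroid gene *Epb42* and the muscle genes *Tnnt3* and *Pvalb* were listed at 0 in all of them. Of the osteocyte genes, *Sost* was at 15.8 to 22.7 FPKM in the hemoglobin-rich libraries and at 0.0661 to 0.198 FPKM in the others, *Dmp1* went the other way at 22.5 to 24.2 against 50.0 to 127 FPKM, and *Phex* overlapped. Of the osteoblast genes, *Bglap2* was at 1641 to 1959 FPKM in the hemoglobin-rich libraries and at 264 to 513 FPKM in the others. *Ibsp* went the other way at 43.1 to 91.3 against 986 to 1278 FPKM, and *Col1a1* overlapped in FPKM. The 6 macrophage markers summed to 403 to 533 FPKM in the hemoglobin-rich libraries and to 1397 to 2762 FPKM in the others. Whether labels were exchanged between libraries was not tested, and every difference between bone and osteoblasts given here holds only for the labels as deposited. Each library held 2.03 to 3.39 Gb of aligned bases, and on a transcript of 1 kb the FPKM of 3 read pairs lay between 0.133 and 0.221.

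Heme, an iron atom held in a porphyrin ring, is built partly in the mitochondrion and partly in the cytosol. Aminolevulinate synthase starts the path and usually sets its pace, and it exists as the housekeeping isoenzyme ALAS1 and the erythroid isoenzyme ALAS2. The cytosolic enzymes then assemble the ring, and the last steps, including the insertion of iron by ferrochelatase, take place in the mitochondrion. Red cell precursors of the marrow make most of the body's heme, for hemoglobin, while other cells make smaller amounts for cytochromes and catalase.

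The promoter windows of both isoenzymes are shown because the data set these genes against each other. That of *Cpox* is shown because, of the 7 members whose windows were searched, it was the only other with a match. Windows are from RefSeq on GRCm38.p6 and run 5′ to 3′ on the strand of the gene, from 250 bases before the annotated start to 50 bases after it. *Alas2* lies on the plus strand (chrX:150547167-150547466), *Alas1* on the minus strand (chr9:106247905-106248204) and *Cpox* on the plus strand (chr16:58669958-58670257). Capitals mark matches on either strand to a form of the GATA motif (AGATAA or TTATCT), a form of the CACCC box of erythroid genes (CACACCC or GGGTGTG) and the core of the NRF1 motif (GCATGCG or CGCATGC, which overlap each other in *Alas1*). Other forms of these motifs were not searched. The bare letters CACCC, on one strand or the other, also stand in lower case in each window shown, that of *Alas1* included. The bare letters GATA do so in the *Alas2* and *Cpox* windows.
Alas2: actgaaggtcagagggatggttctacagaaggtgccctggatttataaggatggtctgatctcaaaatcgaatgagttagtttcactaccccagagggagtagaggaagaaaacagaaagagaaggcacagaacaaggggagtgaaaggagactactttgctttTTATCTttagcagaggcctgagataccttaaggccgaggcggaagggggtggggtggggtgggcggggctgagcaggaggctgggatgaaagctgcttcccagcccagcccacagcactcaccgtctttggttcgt
Alas1: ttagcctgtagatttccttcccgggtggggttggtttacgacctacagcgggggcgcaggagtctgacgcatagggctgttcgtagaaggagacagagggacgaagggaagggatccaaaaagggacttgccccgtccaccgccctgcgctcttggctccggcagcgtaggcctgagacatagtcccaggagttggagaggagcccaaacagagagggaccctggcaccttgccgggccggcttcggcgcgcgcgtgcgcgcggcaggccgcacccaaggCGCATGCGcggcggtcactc
Cpox: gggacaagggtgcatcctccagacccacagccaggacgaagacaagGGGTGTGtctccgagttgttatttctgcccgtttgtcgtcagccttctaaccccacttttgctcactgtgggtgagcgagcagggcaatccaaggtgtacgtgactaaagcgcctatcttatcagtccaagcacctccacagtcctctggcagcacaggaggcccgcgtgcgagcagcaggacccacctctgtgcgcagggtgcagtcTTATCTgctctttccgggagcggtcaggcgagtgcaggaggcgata

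Among 32851 windows of the same length, 11.2% held the searched GATA letters, 7.95% the searched CACCC letters and 3.58% the NRF1 core. In *Alas2* the searched GATA letters lay at bases -86 to -81 from the start. In *Cpox* they lay at bases 4 to 9 after it, with the searched CACCC letters at -204 to -198. Other GATA letters stand unmarked before the start of *Cpox*. In *Alas1* the overlapping NRF1 letters lay between bases 30 and 37 after the start. Counted from another annotated start of *Alas1*, whose window is not shown, the same letters lay between bases -194 and -187. The *Alas1* window had a GC content of 65.3% and 27 CpG, against 52.3% and 6 CpG in *Alas2* and 58.7% and 15 CpG in *Cpox*, where the median window had 52.7% and 7 CpG. RefSeq windows were searched for 7 of the 9 members, and those of *Alad*, *Ppox*, *Urod* and *Uros* held none of these letters. No window searched for *Ppox*, *Urod* or *Uros* was placed at the 5′ end of the RefSeq gene.

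*Alas2*, the erythroid enzyme of the first step, was high in 3 libraries and at the limit of detection in the other 3. It was at 0.208, 0.0880 and 750 FPKM in bone replicates 1, 2 and 3, and at 0.0540, 732 and 910 FPKM in osteoblasts replicates 1, 2 and 3. The 3 high libraries are the hemoglobin-rich ones, and there *Alas2* was above 99.4%, 99.3% and 99.5% of the genes with at least 1 FPKM. In bone replicate 2 and osteoblasts replicate 1 its value was below that of 3 read pairs on 1 kb, and bone replicate 1 was just above it, so no fold between these libraries is given. The feature (chrX:150547375-150570638, plus strand) covers the whole RefSeq gene and lies within the RefSeq extent of *Apex2* on the other strand, and the library kit does not mark strand.

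*Alas1*, the housekeeping enzyme of the same step, was measured in all 6 libraries over a narrower range. Bone replicates 1, 2 and 3 had 20.4, 6.95 and 35.6 FPKM, and osteoblasts replicates 1, 2 and 3 had 9.33, 51.1 and 45.1 FPKM. The hemoglobin-rich libraries again held the 3 highest values, but the gap was small, with the lowest of them 1.75 times the highest of the others. Unnamed features took 27.4% to 71.5% of the FPKM of a library, and after scaling to the sum over named genes this gap narrowed to 1.19 times, while scaling to the 75th percentile gave 2.52 times. The feature (chr9:106233455-106248654, minus strand) covers the RefSeq gene and touches *4930500F10Rik*.

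Set against each other within a library, the isoenzymes changed places. The FPKM ratio of *Alas2* over *Alas1* came to 0.0102, 0.0127 and 21.1 for bone (replicates 1, 2 and 3) and to 0.00579, 14.3 and 20.2 for osteoblasts (replicates 1, 2 and 3). *Alas2* thus made up 93.5% to 95.5% of the summed FPKM of both genes in the hemoglobin-rich libraries, and 0.576% to 1.25% in the others. This ratio does not depend on the scaling of the library, but it does depend on how transcripts were put together. The deposited FPKM of *Alas1* was 3.67 to 4.96 times its coverage per Gb of aligned bases, that of *Alas2* 1.18 to 2.37 times, and from the coverage alone the ratio was 57.1 to 75.2 in the hemoglobin-rich libraries and 0.0185 to 0.0422 in the others.

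**Figure D1:**
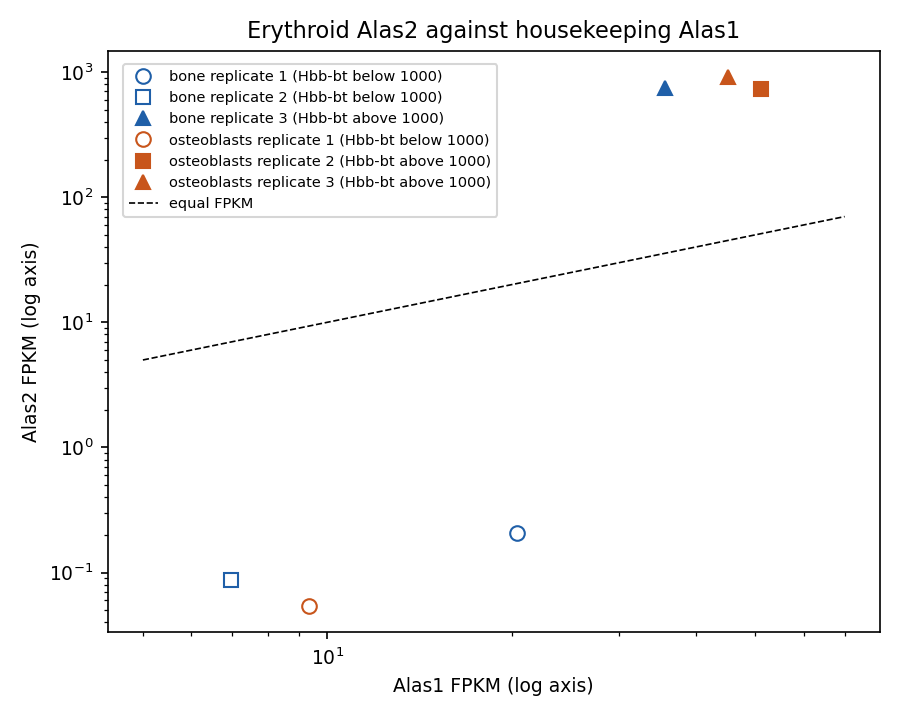
*Alas2* (y axis) against *Alas1* (x axis) in FPKM, both on log axes, 1 point per library, filled where *Hbb-bt* was above 1000 FPKM, with colours for the labels, shapes for the replicate numbers and a dashed line at equal FPKM. Bone replicate 3 and osteoblasts replicates 2 and 3 sit above the line at 732 to 910 FPKM of *Alas2*, and the other libraries sit below it at 0.0540 to 0.208 FPKM.

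Between the labels, the difference of log2(*Alas2* FPKM + 1) and log2(*Alas1* FPKM + 1) was -0.89 ± 4.59 (SD, n = 3) in bone and 1.61 ± 4.25 (SD, n = 3) in osteoblasts. The difference between the labels of 2.49 did not exceed the spread between libraries (two-sided exact permutation test, p = 0.7, where 3 against 3 cannot go below 0.1). Without osteoblasts replicates 2 and 3 the direction turned, with a difference of -2.41, and only 1 osteoblast library was left.

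The cytosolic steps that follow split the libraries in the same way. The unnamed feature at *Alad*, the gene for the enzyme that joins aminolevulinate into porphobilinogen, was at 5.52, 2.45 and 92.2 FPKM in bone replicates 1, 2 and 3 and at 3.16, 84.1 and 80.4 FPKM in osteoblasts replicates 1, 2 and 3. It spans chr4:62504593-62519918 on the minus strand, where RefSeq has *Alad* alone, and its lowest hemoglobin-rich library was 14.6 times the highest other library.

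*Uros*, whose product closes the porphyrin ring, was at 5.68, 2.29 and 32.2 FPKM in bone replicates 1, 2 and 3 and at 3.31, 45.6 and 22.6 FPKM in osteoblasts replicates 1, 2 and 3. Its hemoglobin-rich libraries differed from each other more than those of the other members did, and the lowest was 3.98 times the highest other library. Its feature overlaps *Bccip*. *Urod*, for the decarboxylase of the ring, had 16.3, 9.75 and 133 FPKM in bone and 12.2, 158 and 121 FPKM in osteoblasts, in the same order. *Urod* had a gap of 7.42 times between the same libraries, and its feature (chr4:116989965-116994413, minus strand) overlaps no other RefSeq gene.

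The mitochondrial steps had the same split. *Cpox*, for coproporphyrinogen oxidase, was at 5.31, 3.42 and 35.1 FPKM in bone replicates 1, 2 and 3 and at 3.97, 45.8 and 47.6 FPKM in osteoblasts replicates 1, 2 and 3, with a gap of 6.61 times. Its feature has the extent of the RefSeq gene (chr16:58670208-58680391, plus strand). The unnamed feature at *Ppox*, the gene for the enzyme that oxidizes the ring to protoporphyrin, had 5.24, 2.58 and 41.3 FPKM in bone and 5.07, 39.5 and 35.5 FPKM in osteoblasts, with a gap of 6.77 times. It spans chr1:171275931-171281186 on the minus strand and also reaches the end of *B4galt3*.

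*Fech*, for ferrochelatase, was at 22.2, 10.8 and 172 FPKM in bone replicates 1, 2 and 3 and at 11.3, 169 and 199 FPKM in osteoblasts replicates 1, 2 and 3. The lowest hemoglobin-rich library was 7.61 times the highest other library. *Slc25a37*, for mitoferrin, which brings iron to ferrochelatase, had 5.39, 2.65 and 73.2 FPKM in bone and 3.17, 57.7 and 80.7 FPKM in osteoblasts, with a gap of 10.7 times. The *Slc25a37* value is uncertain, since its feature spans 261515 bp where the RefSeq gene has 43697 bp, and 10 RefSeq genes overlap it.

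**Figure D2:**
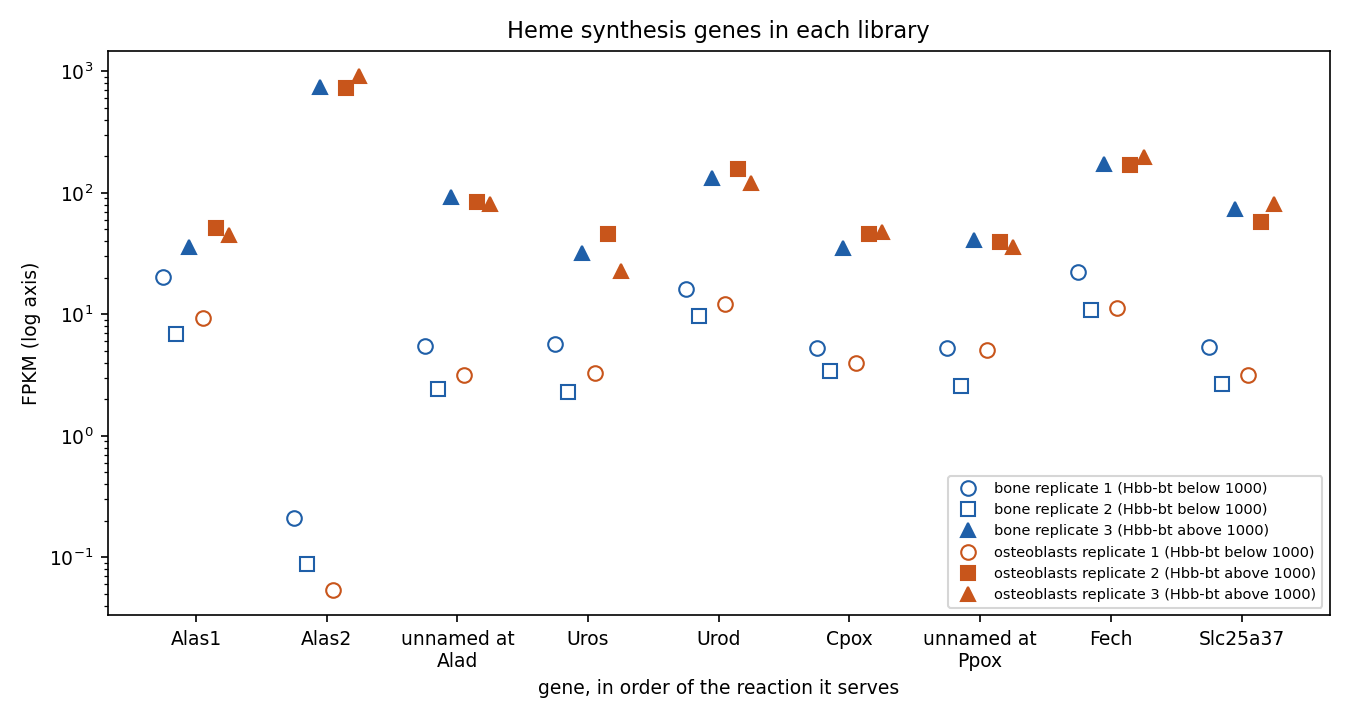
FPKM of each gene (log y axis) in the order of the reactions (x axis), 1 point per library, filled where *Hbb-bt* was above 1000 FPKM, with colours for the labels and shapes for the replicate numbers. In every column the 3 filled points lie above the 3 open ones, from a gap of 1.75 times at *Alas1* to values of 732 against 0.208 FPKM at *Alas2*.

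All 7 named members were higher in each hemoglobin-rich library than in each other library, and so were 38.4% of the 12112 genes tested, while 16.9% were lower. These shares moved with the scaling, to 21.4% higher and 48.6% lower after scaling to named genes, 25.9% and 15.7% in TPM, and 47% and 20.4% after scaling to the 75th percentile, while the members stayed at 7 of 7 higher in each. This is a description without a test, and these libraries differ in many kinds of genes. For 6 of the 7 members, all but *Alas1*, the lowest hemoglobin-rich library was more than 3 times the highest other library, which held for 11.8% of all genes. The median over the members of that ratio was 2.82 on the log2 scale, beside -0.31 over all genes tested. By coverage, too, the 3 highest libraries were the hemoglobin-rich ones for each of the 7 members. Genes of neutrophils and muscle were higher in the same libraries, their part in the members' values was not tested, and fewer cells of a type and less RNA per cell cannot be told apart in bulk RNA.

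The members also differed in their ratio to *Alas1* within a library, which does not change with scaling but depends on how transcripts were put together. By coverage per Gb in the hemoglobin-rich libraries, *Cpox* at 35.1 to 47.6 lay above *Alas1* at 9.68 to 10.3, and *Slc25a37* at 2.37 to 3.07 lay below it. The ratios that follow are of FPKM. *Fech* over *Alas1* came to 1.09, 1.55 and 4.84 for bone (replicates 1, 2 and 3) and to 1.21, 3.30 and 4.41 for osteoblasts (replicates 1, 2 and 3). *Slc25a37* over *Alas1* was 0.264, 0.381 and 2.06 in bone and 0.340, 1.13 and 1.79 in osteoblasts. For both, each hemoglobin-rich library had a higher ratio than each other library. *Urod* over *Alas1* was 2.68 to 3.73 in the hemoglobin-rich libraries and at most 1.40 in the others, and *Cpox* over *Alas1* was 0.896 to 1.05 against 0.261 to 0.492. *Uros* over *Alas1* had ratios of 0.279, 0.329 and 0.905 in bone and 0.355, 0.892 and 0.502 in osteoblasts. Osteoblasts replicate 3 thus lay nearer to the libraries without abundant hemoglobin for *Uros* than the other hemoglobin-rich libraries did.

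In the libraries without abundant hemoglobin, *Fech*, *Urod* and *Alas1* had the 3 highest FPKM of the 7 members. *Fech* and *Alas1* led in bone replicate 1 at 22.2 and 20.4 FPKM, *Fech* and *Urod* in bone replicate 2 at 10.8 and 9.75 FPKM, and *Urod* and *Fech* in osteoblasts replicate 1 at 12.2 and 11.3 FPKM, so the order among them was not the same in each library. *Uros*, *Cpox* and *Slc25a37* lay below them at 2.29 to 5.68 FPKM and overlapped each other, with *Alas2* last. By coverage per Gb, *Cpox* took the place of *Alas1* among the 3 highest in each of these libraries. In the hemoglobin-rich libraries *Alas2* came first, then *Fech* at 169 to 199 and *Urod* at 121 to 158 FPKM, which did not overlap, and *Slc25a37* at 57.7 to 80.7 FPKM, while *Alas1*, *Uros* and *Cpox* overlapped between 22.6 and 51.1 FPKM. By coverage per Gb this order changed too, with *Slc25a37* last at 2.37 to 3.07, below *Uros* at 6.31 to 9.18 and *Alas1* at 9.68 to 10.3, and with *Cpox* above them at 35.1 to 47.6.

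Between the labels as deposited, no member passed the test over all genes. *Alas1* averaged 21.0 ± 14.3 FPKM (SD, n = 3) in bone and 35.2 ± 22.6 FPKM (SD, n = 3) in osteoblasts, a log2 difference of 0.67 with an SE of 0.78 and a 95% interval from -1.10 to 2.43. *Alas2* averaged 250 ± 433 FPKM (SD, n = 3) in bone and 548 ± 482 FPKM (SD, n = 3) in osteoblasts, a log2 difference of 3.16 with an SE of 3.01 and an interval from -3.66 to 9.98. The other 5 members had log2 differences of 0.90 to 1.18, all with intervals that spanned 0. These intervals leave room for large differences in either direction. None of the 7 members passed in limma (Benjamini-Hochberg adjusted p = 0.999 for each), and neither did any of the 12112 genes, so that 0% were called higher and 0% lower, with 17 genes (0.14%) and 0 members at an unadjusted p under 0.05. The unnamed features at *Alad* and *Ppox* had log2 differences of 1.26 (SE 1.43) and 1.08 (SE 1.02) in osteoblasts against bone, with an adjusted p of 0.999 in limma as well.

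The ranges of the labels overlapped for all 7 members, where 0.479% of all genes were higher in each osteoblast library than in each bone library and 0.438% were lower. The median log2 difference was 1.12 over the members and 0.12 over all genes tested. Scaling to the sum over named genes moved the latter to -0.03 and the former to 0.94. Leaving out bone replicate 3 or osteoblasts replicate 1 brings the labels closer to the hemoglobin split, and *Alas2* alone of the members was then called, with log2 differences of 6.28 and 6.36, where 0.545% and 2.16% of all genes were called higher. Without both, all 7 members and 18.2% of all genes were called higher, and the labels could not be told apart from hemoglobin content, since bone replicates 1 and 2 were set against osteoblasts replicates 2 and 3. None of these calls bears on the labels alone. Without osteoblasts replicates 2 and 3, no member passed and all 7 log2 differences were below 0, from -3.24 for *Alas2* to -0.83 for *Alas1*.

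**Figure D3:**
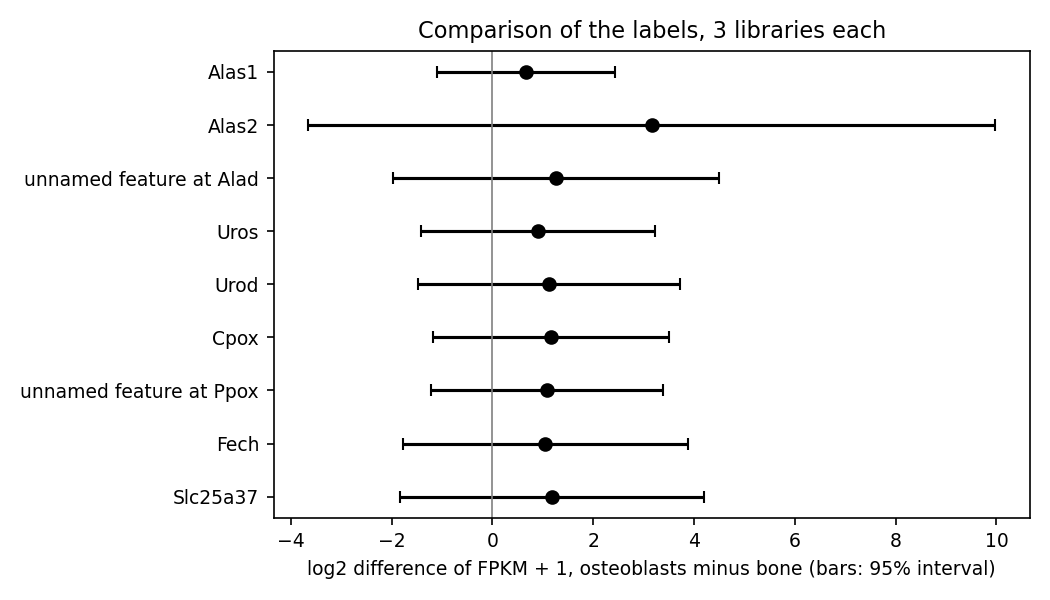
Log2 difference of FPKM + 1 between the labels, osteoblasts minus bone (x axis), for each gene (y axis), with points for the estimate of limma and bars for its 95% interval over 3 libraries a label. Every bar crosses 0, and that of *Alas2* is the widest, from -3.66 to 9.98.

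Of the regulators, the erythroid and blood cell factors *Gata1*, *Klf1*, *Nfe2* and *Tal1* were higher in each hemoglobin-rich library, as *Alas2* was. *Gata1*, the factor that switches on erythroid genes, was at 0.00270, 0.0157 and 61.6 FPKM in bone replicates 1, 2 and 3 and at 0, 61.9 and 55.5 FPKM in osteoblasts replicates 1, 2 and 3. *Klf1*, the erythroid factor that binds the CACCC box, was listed at 0, 0.180 and 130 FPKM in bone and at 0.0488, 124 and 98.8 FPKM in osteoblasts. *Nfe2* and *Tal1*, other factors of blood cell precursors, were at 76.3 to 105 and 67.6 to 75.8 FPKM in the hemoglobin-rich libraries, and at 0 to 0.110 and 0.670 to 1.63 FPKM in the others. Of the 10 tested genes in the list of regulators, 5 were higher in each hemoglobin-rich library, 1 was lower and 4 overlapped in FPKM, where 38.4% of all genes were higher and 16.9% lower. After scaling to named genes 5 were higher and 5 lower, where 21.4% and 48.6% of all genes were. Of the 10, 0 passed between the labels in limma (lowest adjusted p = 0.999).

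Genes that carry substrates into the mitochondrion or build iron-sulfur clusters were then set beside *Alas2*. *Slc25a38*, which imports glycine for aminolevulinate synthase, was at 8.07, 1.37 and 50.2 FPKM in bone replicates 1, 2 and 3 and at 3.80, 56.5 and 52.3 FPKM in osteoblasts replicates 1, 2 and 3. *Tmem14c* and *Abcb6*, porphyrin transporters, were at 42.1 to 65.7 and 43.8 to 57.2 FPKM in the hemoglobin-rich libraries and at 8.39 to 21.5 and 10.4 to 21.4 FPKM in the others. Of 5 measured genes of mitochondrial transport 3 were higher and 2 were lower in each hemoglobin-rich library under each of the 4 scales. All 6 measured iron-sulfur genes were higher in FPKM, but 5 after scaling to the 75th percentile, 3 in TPM and 3 after scaling to named genes. Over all genes tested, 38.4%, 47%, 25.9% and 21.4% were higher on these scales, and 16.9%, 20.4%, 15.7% and 48.6% were lower. *Glrx5*, a cluster carrier, had 37.2 to 41.9 against 3.99 to 9.29 FPKM and *Isca1*, of the late cluster steps, 44.2 to 55.0 against 13.1 to 23.1 FPKM, both higher on each scale. *Iscu*, the cluster scaffold, had 18.8 to 20.8 against 9.39 to 17.4 FPKM, and it was lower in each hemoglobin-rich library after scaling to named genes. *Slc25a28*, the mitoferrin of other tissues, is on no named feature and was not used here.

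The genes of iron uptake and heme breakdown differed among themselves. *Tfrc*, the transferrin receptor, was at 32.8, 18.2 and 23.3 FPKM in bone replicates 1, 2 and 3 and at 19.4, 44.6 and 45.2 FPKM in osteoblasts replicates 1, 2 and 3, so bone replicate 3 had less than bone replicate 1, although the 75th percentile scaling separated the libraries. *Steap3*, the ferrireductase of the endosome, had 18.1 to 22.0 FPKM in the hemoglobin-rich libraries and 3.45 to 8.23 in the others, and *Ncoa4*, which directs ferritin to breakdown, 15.4 to 30.1 against 8.34 to 12.2 FPKM, a separation lost in TPM and after scaling to named genes. *Hmox1*, the inducible heme oxygenase, was at 155, 70.3 and 80.0 FPKM in bone and at 144, 116 and 132 FPKM in osteoblasts, overlapping in FPKM and lower in each hemoglobin-rich library after scaling to named genes. *Slc48a1*, a heme transporter, overlapped in FPKM, at 57.5 to 63.1 against 39.2 to 69.8 FPKM, and turned either way with the scaling, whereas *Blvrb*, a biliverdin reductase, had 198 to 227 against 42.7 to 85.4 FPKM and was higher on each scale. Of the 6 measured genes of heme export and breakdown 2 were higher, 1 was lower and 3 overlapped in FPKM, and 1 was higher and 4 were lower after scaling to named genes. With so few genes these counts are near the shares over all genes, 38.4% and 16.9% in FPKM and 21.4% and 48.6% after scaling to named genes.

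*Cat*, for the heme enzyme catalase, was at 170, 103 and 33.5 FPKM in bone replicates 1, 2 and 3 and at 99.5, 42.7 and 51.3 FPKM in osteoblasts replicates 1, 2 and 3, lower in each hemoglobin-rich library on each scale. *Cyc1*, for cytochrome c1, had 45.4 to 63.4 FPKM in those libraries and 12.8 to 27.3 in the others, and overlapped after scaling to named genes. *Mb*, for myoglobin of muscle, was listed at 0 in the libraries without abundant hemoglobin and at 124, 11.2 and 51.7 FPKM in bone replicate 3 and osteoblasts replicates 2 and 3, in the same order as the muscle marker *Acta1* at 558, 109 and 246 FPKM. Of the 7 measured genes 2 were higher, 2 lower and 3 overlapped in FPKM, and 1 was higher and 4 were lower after scaling to named genes, also near those shares over all genes. In none of these lists did limma call a gene between the labels (lowest adjusted p = 0.999).

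**Figure D4:**
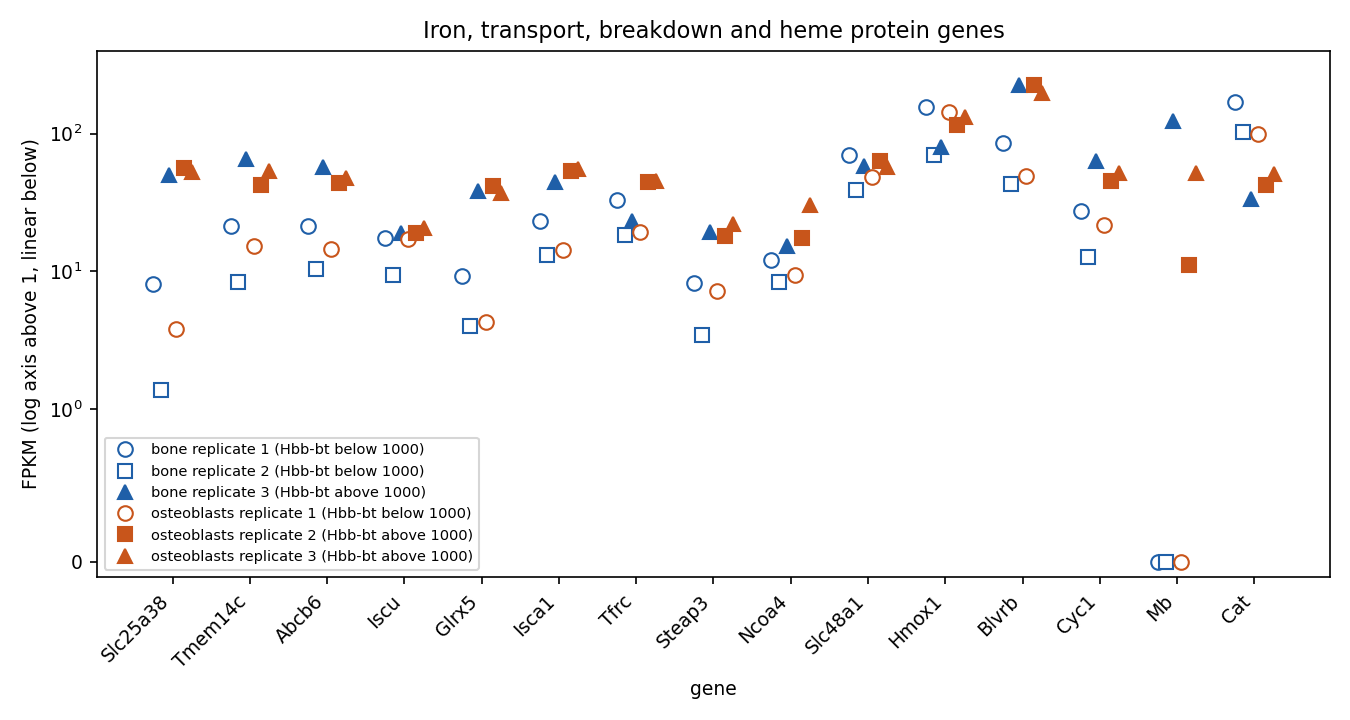
FPKM (y axis, log above 1 and linear below) of genes of transport, iron-sulfur clusters, iron uptake, heme breakdown and heme proteins (x axis), 1 point per library, filled where *Hbb-bt* was above 1000 FPKM, with colours for the labels and shapes for the replicate numbers. Filled and open points separate for *Slc25a38* and *Glrx5*, mix for *Tfrc* and *Hmox1* (each separates on 1 other scale), and are in the opposite order for *Cat*, where the open points are at 99.5 to 170 FPKM.

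Over the 6 libraries, the genes most like *Alas2* by Pearson's r of log2(FPKM + 1) were *Gsdma3*, *Ubash3a*, *Ear6*, *Ltf* and *BC035044*, of which *Ltf*, for lactoferrin, is a gene of neutrophil granules. For *Alas2*, 514 of the 12111 other genes had an r above 0.99. The 5 most like *Alas1* were *Clp1*, *Gm14036*, *Riok1*, *Rfwd3* and *Sema3f*, and 188 genes had an r above 0.99 with it. *Alas1* and *Alas2* had an r of 0.91 with each other, which placed *Alas1* at rank 2472 for *Alas2*. With the libraries in a pair of separate clusters, these values order genes and carry no p.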

How the data were processed

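RNA-seq libraries of bone (3) and osteoblasts (3) were used. The authors prepared them with a TruSeq RNA kit, aligned paired reads of 75 bases to GRCm38 with HISAT2 2.0.5 and estimated expression with StringTie 1.3.3, and the submitters' processing notes also name SAMtools 1.7. They deposited for each of 93285 features its coverage, FPKM and TPM, without read counts. The deposited FPKM are relative to all aligned fragments of the library, the deposited TPM are rescaled within it, and the deposited coverage is the mean depth over the bases of the feature. Aligned bases, and from them read pairs, came from the ratio of coverage to FPKM. The floor of 3 read pairs covers counting error only, and intervals for single values need counts.

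The members and all gene lists were chosen with earlier results of these data known. FPKM were summed by gene name. Genes with a mean of at least 1 FPKM were compared between the labels with limma 3.58.1 in R 4.3.3 (lmFit, eBayes with a trend) on log2(FPKM + 1), so that fold changes of low genes are understated, with Benjamini-Hochberg adjustment over all 12112 genes and a threshold of 0.05. The fit was tested on simulated data with a shift along the labels and no hemoglobin split, so that test does not cover the split seen here. The isoenzymes were compared by an exact permutation test (Python 3.11.15, scipy 1.17.1, numpy 2.4.6, pandas 2.3.3), and plots used matplotlib 3.10.9. Libraries were never averaged by *Hbb-bt*.

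Named were the 9 members, *Hbb-bt*, the 3 genes with the highest mean FPKM in each list of related genes, *Slc25a28*, *Slc25a38*, *Gata1* and *Klf1*, and the 5 genes most like each isoenzyme. Marker genes were named after their values were seen, and some genes that the rule names are not reported here. Markers were counted over lists for erythroid cells, neutrophils, osteocytes, osteoblasts, muscle and macrophages. Of the 6 measured osteoblast genes 1 was higher and 2 were lower in each hemoglobin-rich library, and of the 4 tested osteocyte genes 1 was higher and 1 was lower, where 38.4% of all genes were higher and 16.9% lower (FPKM). Unnamed features at *Alad* and *Ppox* were found by RefSeq positions on GRCm38.p6. Alternatives were pseudocounts of 0.1 and 0.01, TPM, other scalings, quantile normalization, filters at 5 FPKM or none, no trend, the replicate block and leaving out libraries. The unnamed features and coverage per Gb were added after seeing the data. Promoter sequence of *Fech* and *Slc25a37* was not used here.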

Additional observations from a re-analysis of the deposited data

Results flagged for a closer look

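The unnamed feature at *Alad* reached 92.2 FPKM in bone replicate 3, and that at *Ppox* reached 41.3 FPKM in the same library, although neither gene name is on any feature of the tables. Both lie outside the named genes compared between the labels, and both are above the 3-pair floor of 0.179 FPKM of that library. The study has no control samples for them. Added to the fit of limma, neither passed between the labels (adjusted p = 0.999 for each), and 0 of the 7 named members passed as before.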

How the results depend on the processing

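Of 140 alternative values for the fold changes of the 7 members, 123 kept their direction and their side of the threshold, 7 reversed and 10 passed the threshold. In limma 0 genes were called between the labels, and 49 (46 higher and 3 lower in osteoblasts) with the replicate block, 77 without bone replicate 3, 300 without osteoblasts replicate 1 and 3001 without both of these, with a range of 0 to 300 over leaving out single libraries. The members called were 0, and 1 with the replicate block (*Alas2*), 1 without bone replicate 3, 1 without osteoblasts replicate 1 and 7 without both, with a range of 0 to 1 over single libraries. Without both osteoblasts replicates 2 and 3 the log2 differences reversed to -2.41 for the isoenzyme ratio, -0.83 for *Alas1*, -3.24 for *Alas2*, -1.06 for *Uros*, -1.15 for *Urod*, -1.01 for *Cpox*, -1.55 for *Fech* and -1.53 for *Slc25a37*. The single osteoblast library left was then assumed to vary like bone. The isoenzyme ratio ranged from 0.86 to 5.12 over leaving out single libraries. All other alternatives called 0 genes. For the replicate block, deviations of same-numbered libraries correlated at 0.84, -0.75 and 0.83. Differently numbered libraries on the same side of the hemoglobin split also correlated. Bone replicate 2 and osteoblasts replicate 1 did so at 0.80, and bone replicate 3 and osteoblasts replicate 2 at 0.83. These values therefore cannot show whether a shared number marks the same mouse. The block left the isoenzyme difference at 2.49 (exact sign-flip p = 0.5, smallest possible 0.25, higher in 2 of 3 pairs).

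Depth limits *Alas2* in the libraries without abundant hemoglobin, where its value was near or below that of 3 read pairs, and without counts no interval can be given. Gene FPKM of features with several transcripts were not proportional to the listed coverage. Reads shared with overlapping genes could not be separated. Sex and age were not given, and with 3 libraries a label of which 1 or 2 stand apart, an absent call says little about the labels.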
